A study of Mus musculus with 6 samples.

Results

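The *Dlk1* to *Dio3* domain is an imprinted stretch of mouse chromosome 12, and its RNAs were followed in polyA RNA-seq of mouse embryonic stem cells (ESCs) that carry wild-type or mutant *Ube2d3*. The 6 genes described are *Dlk1*, *Meg3*, *Rtl1*, *Rian*, *Mirg* and *Dio3*, among 37620 genes in the count table. The group was chosen by the difference of *Dlk1* counts between S138A and wild-type libraries, together with the neighbours of *Dlk1* in the domain, so the genotype differences of these genes are given as descriptions without a test. Of the 6, *Dlk1*, *Meg3*, *Rtl1* and *Dio3* had a row of counts (4 genes), and 3 of those, all but *Rtl1*, had enough counts to enter the fit over 16023 genes. *Rian* and *Mirg* matched no row by identifier and were not analysed here.

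In imprinted domains one parental copy of a gene is used and the other is kept silent, with the choice set by DNA methylation laid down in the germ line. The silent copy of a gene need not be the methylated one. In this domain the protein-coding genes *Dlk1*, *Rtl1* and *Dio3* are used mainly from the paternal copy, and the long noncoding RNAs *Meg3*, *Rian* and *Mirg* from the maternal copy, with a methylated region upstream of *Meg3* setting the parental copies apart. The noncoding RNAs carry many miRNAs and snoRNAs, and in pluripotent cells the level of *Meg3* is widely used as a sign of whether the imprint is intact. Counts per gene do not separate the parental copies, so the values below are sums over both.

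The libraries were 3 of wild-type E14 ESCs and 3 of *Ube2d3*-S138A E14 ESCs, in which 1 serine of the ubiquitin-conjugating enzyme UBE2D3 is replaced with alanine. Both groups are of strain 129/Ola and were grown in 15% serum, and the study's methods describe culture on gelatin with LIF and a homozygous line made by CRISPR editing, with 1 mutant clone used for most of its assays. No label states that the libraries of a genotype came from different cultures, and their spread may be technical. The revertant line was not analysed here. S138A columns could not be tied to a replicate number, and the letters A, B and C stand for them. Totals ran from 33227593 to 37169770 counts per library. In the principal components, PC1 (56.6% of the variance) set wild-type 3 and S138A C apart from the other 4 libraries, while PC2 (25.4%) set the genotypes apart. Values of the measured members, and calls in gene lists, are therefore also given without this pair. *Ube2d3* itself stood at 412 ± 93.6 CPM (counts scaled to the size of the library) in wild-type and 395 ± 117 CPM in S138A libraries (SD, n = 3), a level that does not check the genotype, since the change is of 1 codon. The 12 pluripotency markers examined summed to between 7525 and 8383 CPM in the 6 libraries, with none at 0.

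The domain lies in the distal part of chromosome 12, and its positions are given in GRCm38, whereas the counts were made on mm9. *Dlk1* spans chr12:109452823-109463336 and *Meg3* chr12:109541001-109571726, both on the plus strand. *Rtl1* spans chr12:109589193-109600330 on the minus strand. *Rian* (chr12:109603940-109661716), *Mirg* (chr12:109729764-109749460) and *Dio3* (chr12:110279068-110281097) lie on the plus strand. *Dio3*, annotated over 2030 bases of exon, begins 826 kb from the start of *Dlk1*.

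**Figure D1:**
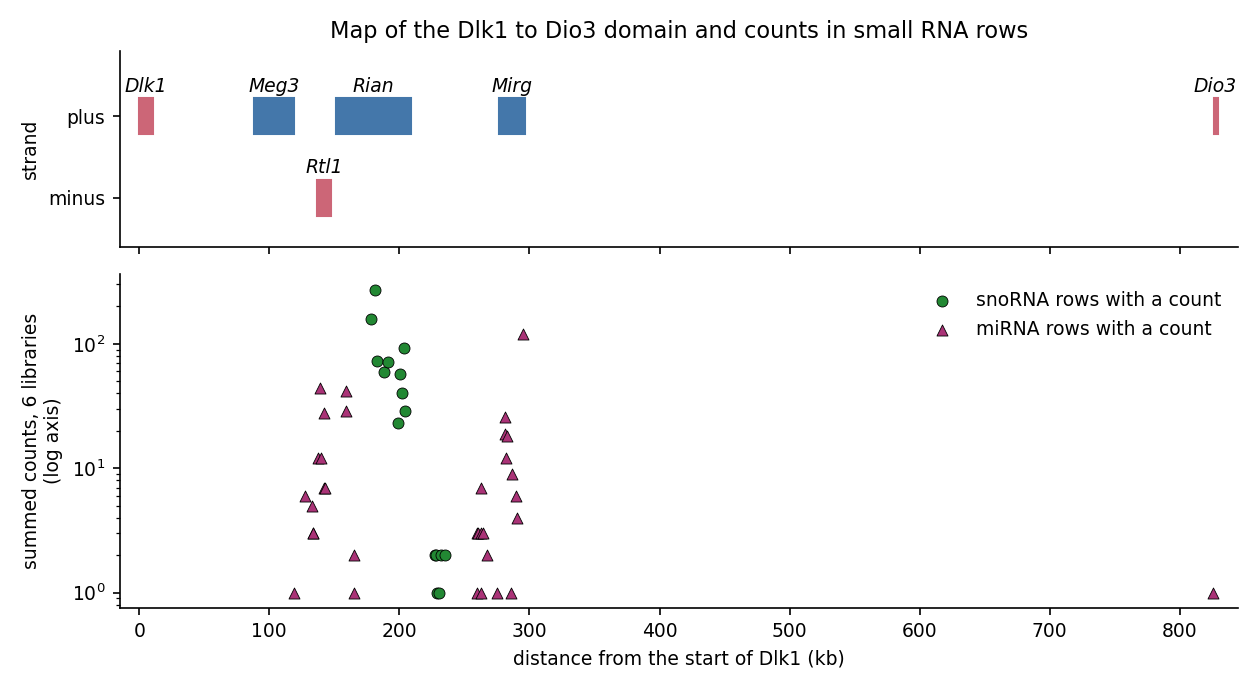
The upper panel places the 6 genes by strand and by distance in kb from the start of *Dlk1*, with protein-coding genes in red and noncoding genes in blue. The lower panel gives, on a log axis, the counts summed over the 6 libraries for each annotated snoRNA (circles) and miRNA (triangles) row that had a count, and the highest is a snoRNA row inside *Rian* with 273 counts.

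Promoters of the 3 measured members are printed because these genes stood at very different levels in the same cells. Each is the 300 bases from 250 before to 50 after a RefSeq start on the plus strand of GRCm38.p6, with every CpG, the base pair step that carries most DNA methylation in mammals, in capitals.
Dlk1, chr12:109452573-109452872: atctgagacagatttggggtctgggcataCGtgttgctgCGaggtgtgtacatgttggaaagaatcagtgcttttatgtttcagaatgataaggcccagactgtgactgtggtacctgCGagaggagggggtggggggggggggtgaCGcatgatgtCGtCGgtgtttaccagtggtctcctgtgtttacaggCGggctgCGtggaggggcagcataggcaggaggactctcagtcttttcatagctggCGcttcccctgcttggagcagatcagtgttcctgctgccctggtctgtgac
Meg3, chr12:109540746-109541045: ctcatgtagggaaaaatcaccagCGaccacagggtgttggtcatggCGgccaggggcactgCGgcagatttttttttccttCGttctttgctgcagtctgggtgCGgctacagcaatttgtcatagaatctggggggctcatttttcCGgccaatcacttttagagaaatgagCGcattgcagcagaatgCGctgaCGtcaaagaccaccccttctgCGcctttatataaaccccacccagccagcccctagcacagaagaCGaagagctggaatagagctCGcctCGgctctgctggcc
Dio3, chr12:110278980-110279279: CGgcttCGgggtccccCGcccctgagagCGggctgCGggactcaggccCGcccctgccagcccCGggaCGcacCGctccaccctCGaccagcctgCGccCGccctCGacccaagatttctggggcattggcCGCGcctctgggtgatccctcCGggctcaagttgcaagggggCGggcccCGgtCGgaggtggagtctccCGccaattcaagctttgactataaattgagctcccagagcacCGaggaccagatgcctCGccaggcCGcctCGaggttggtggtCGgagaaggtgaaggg
The *Dio3* window holds 25 CpGs, more than 81.6% of the 32851 promoter windows of the same length. The *Meg3* window shown has 13 CpGs, above 62.1% of windows, and *Dlk1* has 9, above 54.2%, against a median of 7. A second RefSeq start of *Meg3*, with the window chr12:109545148-109545447, has 1 CpG, above 5.43% of windows, and holds none of the motifs that follow. The windows shown differ also in short motifs, searched on both strands. TATAAA, the core of the TATA box, occurs in the windows of *Meg3* (2 matches, which overlap at 1 site on opposite strands) and *Dio3* (1 match). It is in 13.6% of all windows. GGGCGG, the GC box, has 4 matches in the *Dio3* window and none in the other pair, and is in 35.7% of all windows. TGCCGC, the motif of the imprint-protecting factor ZFP57 when its CpG is methylated, has 1 match in the *Meg3* window and is in 11.6% of all windows. TGACGTCA, the cAMP response element, also has 1 match in the *Meg3* window and is in 1.79% of all windows. Such matches are letters in a window and say nothing of binding in these cells.

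*Dlk1* encodes a membrane protein related to the Notch ligands that restrains differentiation, for example of fat cells. Its counts were 65, 62 and 124 in wild-type libraries 1, 2 and 3, and 164, 191 and 245 in S138A libraries A, B and C. Scaled by library size and TMM factors, these are 1.97, 1.96 and 3.25 CPM against 4.75, 5.19 and 6.61 CPM. The lowest S138A library was above the highest wild-type library, and the highest library of each genotype was the one that PC1 set apart. The means were 2.39 ± 0.742 CPM in wild-type and 5.52 ± 0.968 CPM in S138A libraries (SD, n = 3), a ratio of 2.31 and a log2 difference of 1.20 (SE 0.28). Without wild-type 3 and S138A C the log2 difference was 1.34 (SE 0.15), and with the number in the column names taken as a block it was 1.22 (SE 0.16). *Dlk1* was the only one of the 3 tested members whose genotypes did not overlap, in a table where 11.3% of all tested genes were higher in S138A libraries without overlap, 10.9% were lower and 22.2% were either. *Dlk1* was a low RNA in wild-type cells, with 25.3% of tested genes at lower CPM. In RNA from whole cultures, more expressing cells and more RNA per cell cannot be told apart.

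*Meg3*, the long noncoding RNA next to the imprint control region, had the highest CPM of the 4 members with a row. Its counts were 6446, 6337 and 5315 in wild-type libraries and 6593, 6338 and 7727 in S138A libraries. As CPM these are 195, 200.5 and 139 against 191, 172 and 208. The genotypes overlapped, and the lowest library, wild-type 3, and the highest, S138A C, were those set apart on PC1. Means were 178 ± 33.9 and 191 ± 18.03 CPM (SD, n = 3), with a log2 difference of 0.10 (SE 0.16). Among the libraries without wild-type 3 and S138A C the sign turned, to -0.13 (SE 0.06). Only 1100 of the tested genes had a higher mean CPM in wild-type cells, which places *Meg3* above 93.1% of them.

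*Dio3* encodes the deiodinase that inactivates thyroid hormone. It had 557, 588 and 389 counts in wild-type libraries and 1623, 1719 and 181 in S138A libraries. In CPM the wild-type libraries held 16.9, 18.6 and 10.2 and the S138A libraries 47.0, 46.7 and 4.88. S138A A and B lay above every wild-type library, while S138A C lay below them all, so the genotypes overlapped. Means were 15.2 ± 4.44 and 32.9 ± 24.2 CPM (SD, n = 3), with a log2 difference of 1.11 (SE 0.73) over 6 libraries. Without wild-type 3 and S138A C it was 1.40 (SE 0.08), whereas the block gave 0.72 (SE 0.43). Matched by column number, S138A was 2.79-fold and 2.51-fold higher in the first pairs and at 0.479 of wild type in the pair of wild-type 3 and S138A C. The coefficient of variation among S138A libraries was 73.7%, above that of 97.0% of tested genes.

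**Figure D2:**
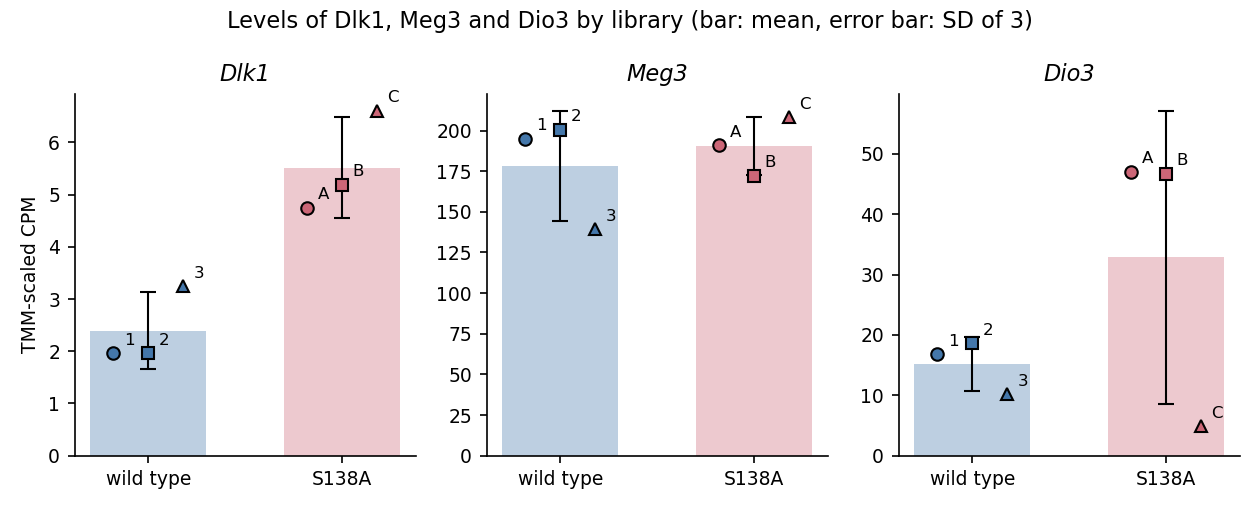
TMM-scaled CPM of *Dlk1*, *Meg3* and *Dio3* on linear axes from 0, with 1 point per library (wild type blue, S138A red), bars at the mean and error bars of 1 SD of 3 libraries. The S138A points of *Dlk1* lie above the wild-type points, those of *Meg3* overlap them, and those of *Dio3* split into 2 high libraries near 47 CPM and S138A C at 4.88 CPM.

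*Rtl1*, a gene derived from a retrotransposon and needed in the placenta and muscle, was near the detection limit. It had 0, 2 and 1 counts in wild-type libraries and 1 count in each S138A library. With 3 counts in each genotype, no fold is given, since a count of 0 in a library still allows up to 3 counts, or 0.0786 to 0.0949 CPM. The RNA of *Rtl1* lies opposite miRNA genes of the maternal copy, whose products match it in full and can cut it. RefSeq places 11 mature miRNAs of 6 hairpins there, and 11 of 11 have a full complement in the *Rtl1* transcript. One product of each hairpin with a row in the table is shown with its seed, bases 2 to 8, in capitals, and the 5 seeds differ from each other.
miR-431-5p, chr12:109590459-109590479: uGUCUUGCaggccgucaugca
miR-433-3p, chr12:109591781-109591802: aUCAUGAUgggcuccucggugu
miR-127-3p, chr12:109592888-109592909: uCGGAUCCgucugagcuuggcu
miR-434-3p, chr12:109594565-109594586: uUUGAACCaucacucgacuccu
miR-432, chr12:109595006-109595028: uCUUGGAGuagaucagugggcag
The 5 hairpin rows summed to 13, 18 and 13 counts in wild-type libraries and 21, 25 and 13 in S138A libraries. The groups overlapped, and *Mir433* held more of these counts than any other row, with 44 over the 6 libraries. These are reads of polyA RNA over the hairpin, not mature miRNA. The 5 rows held 44 counts in wild-type and 59 in S138A libraries. The *Rtl1* row, with 6358 annotated bases of exon, held 3 in each genotype. The strand used in counting is not given, and whether any of the hairpin counts are reads of *Rtl1* was not tested.

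*Rian* and *Mirg* could be followed only through the small RNA rows within them, which were grouped after their values were seen. Of 90 annotated miRNA and snoRNA genes in the domain, 75 had a row, 50 had a count and 9 were tested. The 12 snoRNA rows inside *Rian*, whose products are orphan C/D box snoRNAs, summed to 166, 158 and 152 counts in wild-type libraries and 132, 120 and 149 in S138A libraries. In CPM the wild-type libraries held 5.02, 4.999 and 3.98 and the S138A libraries 3.82, 3.26 and 4.02. S138A A and B were below all wild-type libraries, and S138A C was just above wild-type 3, so the genotypes overlap only through the pair set apart on PC1. The means were 4.67 ± 0.593 and 3.70 ± 0.393 CPM (SD, n = 3). The 4 miRNA rows inside *Rian* went the other way, with overlap. They summed to 12, 12 and 6 counts in wild-type libraries and 16, 10 and 18 in S138A libraries. In CPM this was 0.300 ± 0.124 against 0.407 ± 0.118 (SD, n = 3), so the rows inside *Rian* gave no single direction. Of the 7 tested snoRNA rows there, the one furthest from 0, *DQ267102*, had 18, 18 and 24 counts in wild-type libraries against 7, 14 and 11. Its log2 difference was -0.98 (SE 0.34), with an adjusted p = 0.291 by edgeR and 0.0794 with the block. *AF357425*, at 0.36 (SE 0.36), was the only one of the 7 above 0. The 13 rows inside *Mirg* summed to 34, 42 and 30 counts against 30, 32 and 48, or 1.05 ± 0.272 against 1.01 ± 0.245 CPM (SD, n = 3). The snoRNA and miRNA rows inside *Rian* and *Mirg* therefore held few counts. The 9 tested rows were 7 inside *Rian*, 1 inside *Mirg* and *Mir433*. None passed an adjusted p under 0.05 in edgeR, with or without the block, or in DESeq2. Among all tested genes edgeR called 0%, the block 19.8% and DESeq2 4.96%. An unadjusted p under 0.05 by edgeR was found for 1 of the 9 rows, against 14.2% of all tested genes. Reads of a host transcript over these rows were not separated from reads of the small RNA.

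Levels of genes within a library can be compared per kilobase of exon, and their ratios do not depend on library size. *Meg3* stood at 9.86 ± 1.87 CPM per kb in wild-type and 10.5 ± 0.997 in S138A libraries (SD, n = 3). *Dio3* stood at 7.50 ± 2.19 and 16.2 ± 11.9 CPM per kb, and *Dlk1* at 0.423 ± 0.131 and 0.975 ± 0.171. In wild-type libraries the order was *Meg3*, then *Dio3*, then *Dlk1*, with *Meg3* above *Dio3* in each library and *Dlk1* far below both. The ratio of *Meg3* to *Dlk1* per kb was 31.0, 31.96 and 13.4 in wild-type libraries and 12.6, 10.4 and 9.86 in S138A libraries. These values did not overlap, with wild-type 3 close to S138A A. The ratio holds the *Dlk1* counts by which the group was chosen, so its lack of overlap is no separate result. The ratio of *Meg3* to *Dio3* was 1.30, 1.21 and 1.53 in wild-type libraries and 0.456, 0.414 and 4.79 in S138A libraries. *Dio3* was thus above *Meg3* per kb in S138A A and B, and below it in the other 4 libraries. The ratio of *Dio3* to *Dlk1* was 23.9, 26.4 and 8.74 in wild-type libraries against 27.6, 25.1 and 2.06, so in the 4 libraries without wild-type 3 and S138A C it stayed between 23.9 and 27.6.

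**Figure D3:**
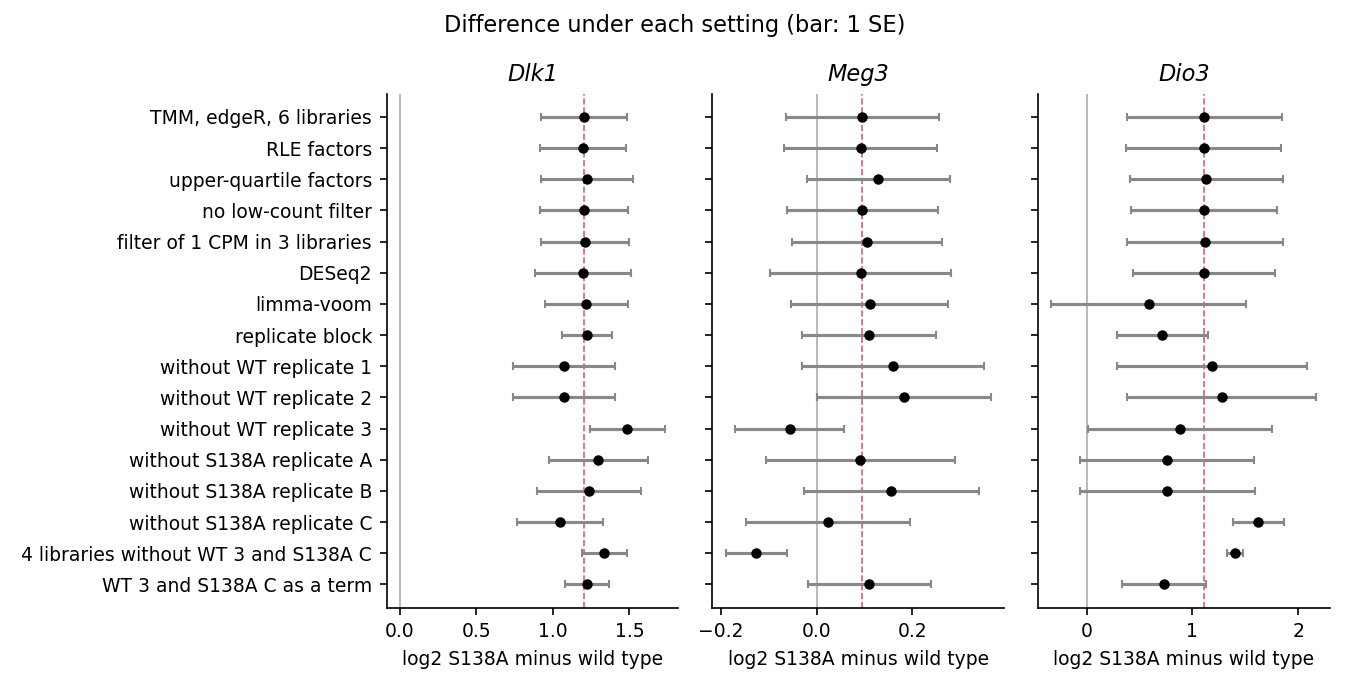
Each point is the log2 difference S138A minus wild type of *Dlk1*, *Meg3* or *Dio3* under 1 setting, with a bar of 1 SE, a grey line at 0 and a dashed line at the value over 6 libraries. *Dlk1* stays between 1.05 and 1.49, *Meg3* lies on both sides of 0, and *Dio3* runs from 0.59 with limma-voom to 1.62 without S138A C.

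Markers of other cell types were read in the same libraries, because *Dlk1* and *Dio3* are also RNAs of embryonic and stromal tissues. The 13 fibroblast markers, 9 of them tested and none at 0 in all libraries, summed to 83.5, 82.1 and 130 CPM in wild-type libraries and to 155, 166 and 130 CPM in S138A libraries. Like *Dlk1*, this sum was lowest in wild-type 1 and 2, but unlike *Dlk1* it was no higher in S138A C than in wild-type 3. *Thy1*, a surface marker, and the collagen genes *Col3a1* and *Col1a1* were the 3 of 9 that passed with the block, where 10.7% of all tested genes were higher and 9.13% lower. Their log2 differences were 1.02, 1.62 and 1.22, with adjusted p = 0.187, 0.200 and 0.210 by edgeR, while *Col1a2*, another collagen gene of the list, named after its value was seen, was at -0.26 (SE 0.35). The 9 mesoderm markers, 7 of them tested, summed to 21.8, 22.02 and 13.1 CPM in wild-type and to 29.0, 31.2 and 11.3 CPM in S138A libraries, highest in S138A A and B and lowest in S138A C, as was *Dio3*, and 0 of the 7 passed with the block. Trophoblast markers (8 of 10 tested) were ordered like this too, at 537, 523 and 496 against 745, 795 and 434 CPM. Neural markers (4 of 9 tested) were at 198, 198 and 105 against 206, 218 and 87.9 CPM, low in the same 2 libraries. With the block, 3 trophoblast markers were higher and 1 lower, and 1 neural marker was lower. Of 9 tested markers of the two-cell-like state that a few ESCs enter, 8 were higher and 1 was lower with the block, at a median log2 difference of 1.25. Their sum was 534, 537 and 435 CPM in wild-type libraries against 591, 556 and 319 CPM. Most of that sum was *Eif1a*, at 468, 469 and 399 CPM against 408, 370 and 272 CPM. *Eif1a* was also the 1 marker that was lower, so the sum does not follow the other 8. Primitive endoderm markers (13 of 13 tested, 2 higher and 1 lower with the block) summed to 356, 365 and 351 CPM in wild-type libraries against 388, 393 and 364 CPM. These calls are to be read against the same shares of all genes, and without the block edgeR called 0 markers in any of these lists. In the 4 libraries without wild-type 3 and S138A C, where 15.3% of all tested genes were called higher and 14.3% lower, edgeR called 4 fibroblast markers higher, 2 of 6 tested mesoderm markers higher, 6 trophoblast markers higher and 1 lower, 1 of 3 tested neural markers higher and 1 lower, 8 two-cell-like markers higher and 1 lower, and 3 primitive endoderm markers higher and 2 lower. No marker with a row in these lists was at 0 in all libraries. The part of such cells in the levels of *Dlk1* and *Dio3* was not tested.

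Genes on either side of the domain were set beside its members. Of 19 flanking genes, 18 were tested, with a median log2 difference of 0.08, against 0.02 over all genes tested and 0.01 over the 528 tested genes of chromosome 12. None passed the threshold in edgeR (2 had an unadjusted p under 0.05, and DESeq2 called 1). In the 4 libraries without wild-type 3 and S138A C, edgeR called 5 of the 18 higher and 1 lower. Among all tested genes 15.3% were called higher and 14.3% lower in those 4 libraries. Over the whole table edgeR called 0 of 16023 genes (0%) at an adjusted p under 0.05. For comparison, 2270 genes (14.2%) had an unadjusted p under 0.05, limma-voom called 0, DESeq2 794 (4.96%) and edgeR with the block 3180 (19.8%), while in the 4 libraries without wild-type 3 and S138A C edgeR called 4756 (29.6%). *Hsp90aa1*, a stress-inducible chaperone gene 1238 kb from the start of *Dlk1*, was the only flanking gene called with the block. It stood at 10030, 9186 and 8957 CPM in wild-type libraries and 6829, 6626 and 5622 CPM in S138A libraries, without overlap, and its log2 difference was -0.56 (SE 0.11, adjusted p = 0.187 by edgeR and 0.00582 with the block). *Wdr25* and *Begain*, the closest tested genes upstream, had log2 differences of 0.38 (SE 0.14) and 0.43 (SE 0.24), with adjusted p = 0.315 and 0.477 by edgeR. In the 4 libraries their differences were 0.48 (SE 0.09) and 0.61 (SE 0.17), and both were among the 5 called higher. *Begain* held 1.66, 1.55 and 2.31 CPM in wild-type against 2.46, 2.45 and 2.56 CPM in S138A libraries. On the *Dio3* side the nearest tested gene, *Ppp2r5c*, had a log2 difference of 0.09 (SE 0.26).

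**Figure D4:**
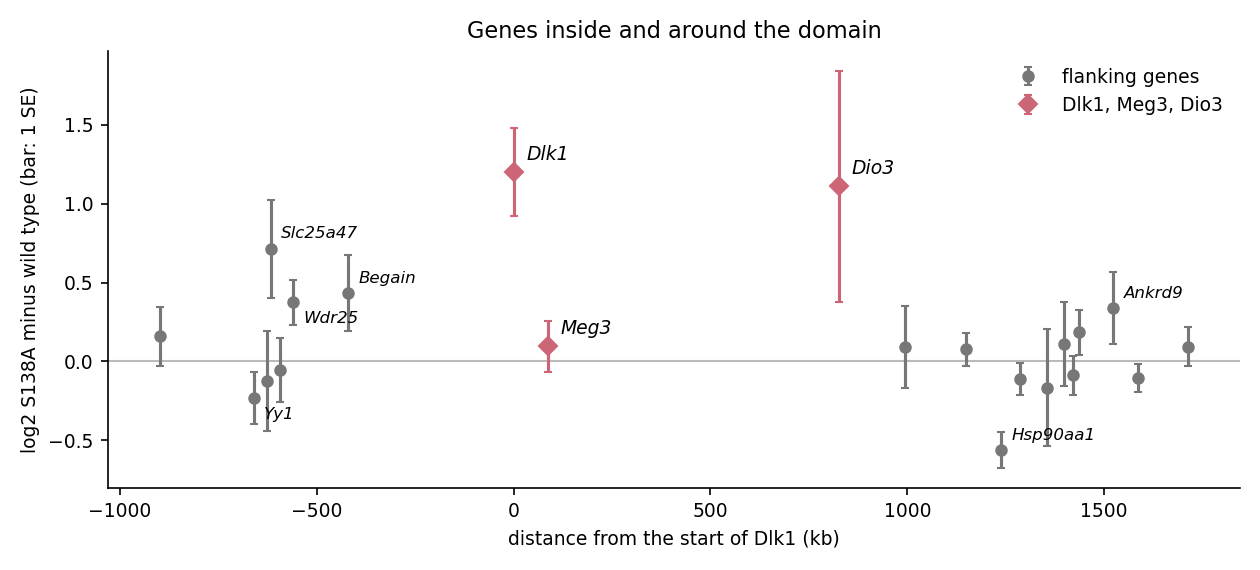
Log2 difference S138A minus wild type with bars of 1 SE, by distance in kb from the start of *Dlk1*, for 18 flanking genes (grey circles) and the 3 measured members (red diamonds). Flanking genes lie between -0.56 (*Hsp90aa1*) and 0.71 (*Slc25a47*, SE 0.31), and *Dlk1* and *Dio3* (SE 0.73) lie above them in this fit over 6 libraries. With the block, which is not drawn, *Dio3* was at 0.72 and *Slc25a47* at 0.70.

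Another 6 lists of related genes, 117 tested genes in all, were read in the same fit, and edgeR and limma-voom called 0 of their members, while 27 had an unadjusted p under 0.05, DESeq2 called 10 and the block 31. The counts that follow are those with the block, to be read against 10.7% of all genes higher and 9.13% lower, followed by those of edgeR in the 4 libraries without wild-type 3 and S138A C, against 15.3% higher and 14.3% lower. Of the 23 genes that write, remove or protect DNA methylation at imprints, 1 was higher and 5 were lower (1 and 8 in the 4 libraries), and the median log2 difference was -0.07. *Dppa3*, which shields methylation in the early embryo, stood at 19.5, 18.3 and 29.7 CPM in wild-type libraries against 2.81, 2.31 and 4.21 CPM in S138A libraries. Its log2 difference was -2.85 (SE 0.30), with an adjusted p = 0.0789 by edgeR and 0.000231 with the block. *Tet3*, an enzyme that oxidizes methylcytosine, differed by 0.46 (SE 0.16), and *Atrx*, a chromatin remodeller found at imprinted regions, by -0.46 (SE 0.13). *Arid4a*, a gene linked to imprint regulation, was at -0.28 (SE 0.10). All 3, which were named for a low p in this list, passed with the block and had genotypes without overlap. Genotypes did not overlap for 30.4% of the list and 22.2% of all tested genes.

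PRC2, the complex that methylates lysine on histone H3, had 12 tested subunit genes, 1 higher and 3 lower with the block (2 and 3 in the 4 libraries), and a median of -0.06. *Suz12*, a core subunit, stood at 353, 359 and 477 CPM in wild-type against 229, 215 and 224 CPM in S138A libraries, a log2 difference of -0.83 (SE 0.14, adjusted p = 0.169 by edgeR and 0.00582 with the block). The Polycomb-like genes went in different directions, with *Phf19* at -1.27 (SE 0.33), *Mtf2* at -0.27 (SE 0.09) and *Phf1* at 0.62 (SE 0.20).

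The Notch pathway, through which *Dlk1* is thought to act, had 29 tested genes of 32, with 3 higher and 4 lower with the block (6 and 4 in the 4 libraries) and a median of 0.14. *Dlk2*, the close relative of *Dlk1*, held 0.787, 0.633 and 0.839 CPM in wild-type and 1.59, 1.74 and 1.83 CPM in S138A libraries. Its log2 difference was 1.19 (SE 0.25), with an adjusted p = 0.191 by edgeR and 0.0159 with the block. *Maml2*, a coactivator of Notch, was at -0.95 (SE 0.20), the sheddase gene *Adam17* at -0.30 (SE 0.10) and the gamma-secretase gene *Ncstn* at 0.33 (SE 0.11), and all 3 passed with the block.

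Genes that carry, convert or sense thyroid hormone, the substrate of *Dio3*, had 14 tested members of 18, with 4 higher and 1 lower with the block (the same numbers in the 4 libraries) and a median of 0.19. *Rxra*, a partner of the thyroid hormone receptors, stood at 35.7, 36.7 and 26.3 CPM in wild-type and 59.9, 61.7 and 39.7 CPM in S138A libraries, a log2 difference of 0.71 (SE 0.21, adjusted p = 0.236 by edgeR and 0.00509 with the block). *Ncor1*, a corepressor gene, was at -0.50 (SE 0.11) and passed with the block, and *Rxrb* was at 0.23 (SE 0.10) and did not.

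Other genes that derive from retrotransposon Gag, as *Rtl1* does, had 10 tested members of 13, 1 of them higher with the block (2 in the 4 libraries), and a median of 0.04. That one was *Rtl6*, at 0.43 (SE 0.16). *Peg10*, which is imprinted too, held 1141, 1131 and 1050 CPM against 1133, 979 and 749 CPM, and *Rtl8a* was at 0.54 (SE 0.27).

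Imprinted genes outside the domain served as the closest comparison. Of 34, 30 were tested, with 5 higher and 3 lower with the block (8 and 4 in the 4 libraries), and their median log2 difference was -0.01. *Igf2*, a paternally used growth factor gene, stood at 69.5, 77.0 and 78.1 CPM in wild-type and 206, 190 and 164 CPM in S138A libraries, a log2 difference of 1.32 (SE 0.12, adjusted p = 0.0548 by edgeR and 0.0027 with the block). *H19*, the maternally used noncoding RNA beside it, stood at 15.6, 14.0 and 68.4 CPM against 1.59, 1.52 and 2.59 CPM, a difference of -4.10 (SE 0.72, adjusted p = 0.177 by edgeR and 0.0027 with the block). Without wild-type 3, which held far more *H19* than the other wild-type libraries, and S138A C, the difference was -3.25 (SE 0.13). In that domain the noncoding RNA was lower and the coding gene higher, whereas in the *Dlk1* to *Dio3* domain *Meg3* differed by less than the spread between libraries, a contrast between domains that was not tested. *Nnat* and *Zrsr1* were at -1.99 (SE 0.51) and -0.55 (SE 0.14), and in the 4 libraries at -1.31 (SE 0.21) and -0.41 (SE 0.09).

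**Figure D5:**
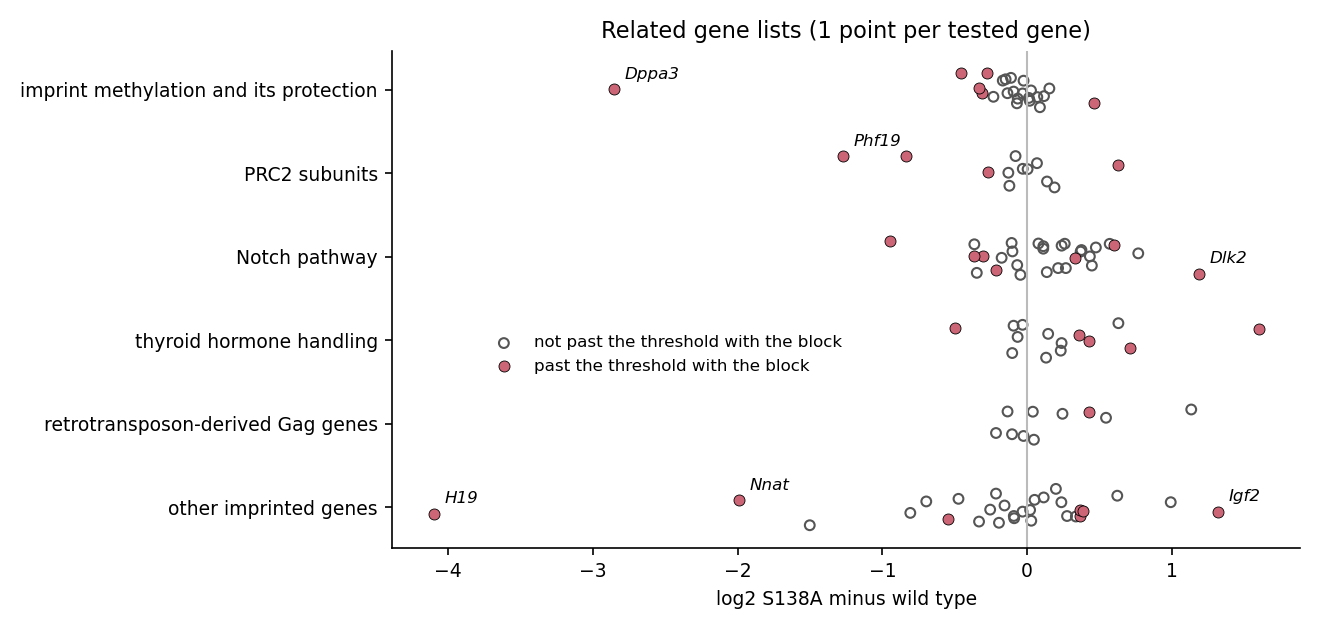
Each point is the log2 difference S138A minus wild type of 1 tested gene, by list, with filled red points for genes past an adjusted p of 0.05 with the replicate block. Vertical scatter within a list has no meaning, and the lowest point is *H19* at -4.10.

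Genes whose pattern over the 6 libraries was most like that of a member were taken by Pearson's r of log2 CPM, as a description over libraries that share genotype and the split on PC1. For *Dlk1* they were *Pmp22*, *Aes*, *1700006J14Rik*, *Maged2* and *Mafa*, with r from 0.997 to 0.999, and 691 genes had r above 0.9. *Pmp22*, a myelin protein gene, held 10.9, 10.6 and 19.8 CPM in wild-type and 31.7, 33.1 and 46.9 CPM in S138A libraries. For *Meg3* they were *Kptn*, *Gm28047*, *Lyst*, *Rab7* and *Ralgapa1*, with r from 0.980 to 0.996, and 71 genes had r above 0.9.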

How the data were processed

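PolyA RNA-seq of 3 wild-type and 3 S138A libraries was analysed. The submitters' processing notes name CASAVA version 1.8.4, TopHat2 version 2.0.11, featureCounts and the genome mm9 (NCBIM37). The authors deposited unnormalized counts per gene. The strand and multimapping settings of the counting are not given in the sources used here. The labels name a stranded kit. ERCC RNA was added to the samples and no spike-in scaling was used here. Symbols matched 32897 of 37620 identifiers (87.4%) through GENCODE M21, which also gave lengths and GRCm38 positions, and 0 rows named no gene. Sequences are from RefSeq on GRCm38.p6.

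Counts were fitted with edgeR (version 4.0.16, under R version 4.3.3) using TMM, filterByExpr (count of at least 10, total of at least 15) and its quasi-likelihood test by genotype, with Benjamini-Hochberg adjustment and a threshold of 0.05. Here limma version 3.58.1 and DESeq2 version 1.42.0 served as alternatives. SEs are the log2 difference over the square root of F. The scripts were tested on simulated data, and figures were drawn in Python version 3.11.15. Members and lists were chosen with earlier results of these data known. Named genes are the 6 members, *Ube2d3*, up to 4 genes per list by p among those of at least 1 CPM, and the 5 genes most like *Dlk1* and *Meg3*. *Slc25a47*, *Ppp2r5c*, *DQ267102*, *AF357425* and the genes like *Dio3* were added after their values were seen. One gene that the rule names is not reported here.

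Pairing was examined by correlating libraries after subtracting the mean of their genotype. Numbered by the last digit of the column name, pairs gave 0.518, 0.481 and 0.747. Wild-type 3 or S138A C set against the other libraries gave -0.646 to -0.586. The values thus follow the split on PC1 and cannot decide whether the libraries were paired by number. Crossing 1 and 2 gave 0.510 and 0.499, so these cannot be told apart, and the pairing comes from column names alone. Depth was 33227593 to 37169770 counts, and limits for low counts cover counting error only. Other alternatives were upper-quartile or RLE scaling, no filter or 1 CPM in 3 libraries, and each library left out. Added after seeing the data were a fit without the pair of S138A C and wild-type 3, a fit with a term for that pair, and the longest transcript as length.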

Additional observations from a re-analysis of the deposited data

How the results depend on the processing

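Of the 95 values recomputed, 80 stayed within the bounds set for a match and 15 moved. The number of genes called, 0 over 6 libraries, was 3 without a filter, 794 with DESeq2, 3180 with the replicate block, 4756 in the 4 libraries without wild-type 3 and S138A C and 4418 with those libraries as a term. Leaving out 1 library gave 0 to 79, the highest without S138A C. Among 135 tested list genes, flanking genes included, the calls numbered 0, and 1, 11, 32, 49 and 51 in the same order, with 0 to 2 when 1 library was left out (2 without S138A C). Leaving out 1 library gave log2 differences of 1.05 to 1.49 for *Dlk1*, -0.06 to 0.18 for *Meg3* (below 0 without wild-type 3) and 0.76 to 1.62 for *Dio3*. The mean ratio per kb of *Meg3* to *Dlk1* was 25.5 in wild-type libraries (22.2 to 31.5 with 1 left out, 81.4 in plain counts) and 10.9 in S138A libraries (10.1 to 11.5, and 34.97 in plain counts). That of *Dio3* to *Dlk1* was 19.7 in wild-type libraries (16.3 to 25.2, and 7.06 in plain counts) and 18.2 in S138A libraries (13.6 to 26.3). Plain counts differ because they are not divided by length. The cause of the differences in calls was not tested. With 62 to 245 counts, *Dlk1* is measured less exactly than *Meg3*, and *Rtl1* could not be compared at this depth.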

Other observations

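The pattern of *Dio3* over the 6 libraries, with S138A A and B high and S138A C low, was shared by other RNAs. By Pearson's r of log2 CPM the closest were *Rps6kl1*, *Dcc*, *Chmp1a*, *Kcns1* and *Gm281*, with r from 0.994 to 0.999, and 667 genes had r above 0.9. *Dcc*, a netrin receptor gene, held 0.908, 0.949 and 0.419 CPM in wild-type libraries and 2.96, 3.32 and 0.216 CPM in S138A libraries. *Zscan4c*, a marker of the two-cell-like state of ESCs, stood at 20.3, 20.2 and 9.59 CPM in wild-type and 52.8, 49.9 and 13.8 CPM in S138A libraries, with S138A C and wild-type 3 again the lowest of their genotype. Its log2 difference was 1.22 (SE 0.52), with an adjusted p = 0.363 by edgeR and 0.00945 with the replicate block.

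Among 113 mature miRNAs that RefSeq places in the domain there were 104 different seeds, and 9 seeds were shared by 18 of the miRNAs. Mature miRNA levels were not measured by these libraries.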
